A study of Mus musculus with 6 samples.

Results

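The TRPM (melastatin-related) channels form a small family of cation channels, and all 8 of its mouse genes, Trpm1 to Trpm8, were taken by name from count tables of 48397 genes. They were measured by sequencing polyadenylated RNA of pancreatic islets, a mixture of endocrine and other cells, from wild-type C57B6 mice. One group of islets was given 500 ng/mL of recombinant mouse prolactin for 24 h and the other DMSO for the same time, after a night of recovery in culture that both groups shared. Each group had 3 libraries. Neither the age of the mice nor the origin of the replicates (1 culture or several) is stated, and p-values then measure only the spread between these libraries, which may be technical. The family was chosen because the rise of Trpm1 in these same libraries was already known. The differences of the TRPM genes between prolactin and control are therefore given as descriptions, and nothing is inferred from how many of them were called.

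TRPM proteins assemble as tetramers around a pore and admit cations in answer to cues such as calcium, nucleotides, steroids, temperature or membrane lipids. In insulin-producing beta cells such currents add to those set by the ATP-sensitive potassium channel, shift the membrane potential and modulate calcium entry and secretion. TRPM2, TRPM4 and TRPM5 have been linked to insulin release in this way, TRPM3 responds to pregnenolone sulphate in beta cells, and TRPM7 carries a kinase domain and is found in nearly every cell. TRPM1 is best known elsewhere, as the light-response channel of retinal ON bipolar cells and as a melanocyte gene.

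The genes fell into close pairs by sequence. Among the 28 pairs of members, the 4 with the most similar coding sequences were Trpm1 with Trpm3 (67.5% of the bases of the shorter sequence identical), Trpm6 with Trpm7 (63.9%), Trpm2 with Trpm8 (60.7%) and Trpm4 with Trpm5 (60.1%). The other pairs lay between 50.7% and 59.9%. TRPM6 and TRPM7 are the channel-kinases, and TRPM4 and TRPM5 are the calcium-activated channels that pass sodium and potassium but hardly calcium. Their longest coding sequences in GENCODE vM21 ran from 3315 bases in Trpm8 to 6087 bases in Trpm6.

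**Figure D1:**
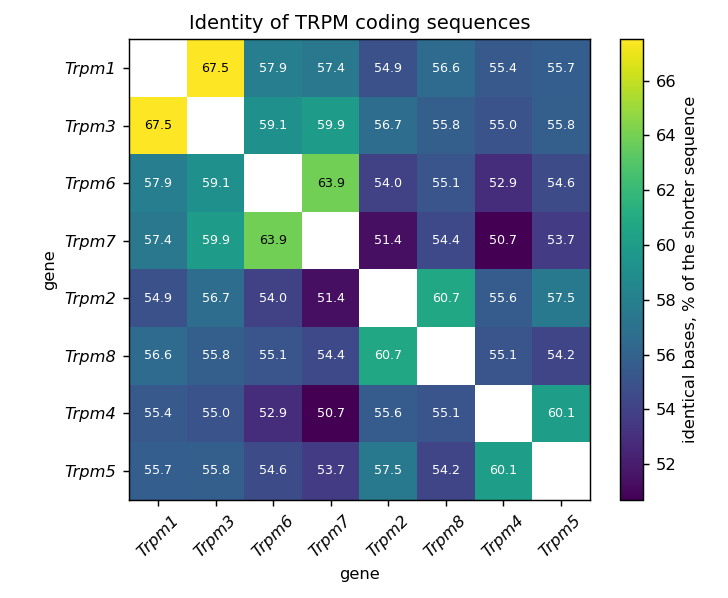
Identity between the longest coding sequences of each pair of TRPM genes, as a percentage of the bases of the shorter sequence, with genes on both axes and darker cells for lower identity. The most similar pair is Trpm1 with Trpm3 at 67.5%.

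Trpm1 and its closest relative Trpm3 each carry a microRNA in an intron. Mir211 lies in intron 6 of the longest coding transcript of Trpm1, and Mir204 in intron 6 of that of Trpm3. The mature 5p strands, from RefSeq on GRCm38.p6, are shown because the hosts are related genes and their guests share a seed, bases 2 to 8, printed in capitals.
mmu-miR-211-5p: uUCCCUUUgucauccuuugccu
mmu-miR-204-5p: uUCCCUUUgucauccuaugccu
They are 22 bases long and differ at 1 position (U17A, counted from 1 at the 5′ end, with the base of miR-211-5p first). The library preparation captures polyadenylated RNA, so mature microRNAs were not measured. The gene row of the Mir211 hairpin held 0 reads in all 6 libraries, where 3 reads would amount to 0.00559 to 0.0129 CPM (counts per 1e6 reads, with totals scaled by TMM, which corrects for library composition), a limit that covers counting error only. The Mir204 row reached at most 0.00863 CPM in prolactin and 0.00374 CPM in control libraries.

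By position the family is scattered, with Trpm1, Trpm4 and Trpm5 on chromosome 7, Trpm3 and Trpm6 on chromosome 19, Trpm2 on chromosome 10, Trpm7 on chromosome 2 and Trpm8 on chromosome 1. Trpm1 spans chr7:64153835-64269775 and Trpm5 chr7:143069153-143094642 (mm10, Trpm1 on the plus strand and Trpm5 on the minus strand). RefSeq promoter windows, from 250 bases before a transcription start to 50 after it, were found for 7 of the 8 genes, 9 windows in all; Trpm4 had none. They were searched on both strands for TTCNNNGAA, the palindrome that STAT factors such as the prolactin-activated STAT5 bind, and for CATGTG, an E-box read by the melanocyte factor MITF. The 250 bases before the outer Trpm1 start and before the Trpm5 start are shown because these are the members with the highest log2 changes, with CATGTG in capitals where present.
Trpm1, chr7:64153585-64153834, plus strand: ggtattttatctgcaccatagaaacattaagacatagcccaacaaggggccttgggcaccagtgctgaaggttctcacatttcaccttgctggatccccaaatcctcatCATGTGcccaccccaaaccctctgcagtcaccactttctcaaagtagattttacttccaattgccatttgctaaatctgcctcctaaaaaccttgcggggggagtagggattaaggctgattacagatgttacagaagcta
Trpm5, chr7:143094643-143094892, minus strand: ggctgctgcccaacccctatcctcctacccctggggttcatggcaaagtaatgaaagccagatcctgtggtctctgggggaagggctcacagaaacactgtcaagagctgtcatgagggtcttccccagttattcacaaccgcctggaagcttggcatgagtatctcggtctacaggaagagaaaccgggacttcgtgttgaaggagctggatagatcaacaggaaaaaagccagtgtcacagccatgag
TTCNNNGAA was absent from the windows of Trpm1 and Trpm5. It stood in 2 of the 9 windows, as TTCCAGGAA after the inner start of Trpm3 and as TTCAAAGAA in that of Trpm8, and in 8.30% of the 32851 promoter windows of all genes. CATGTG or its reverse complement stood in both Trpm1 windows, beginning 141 bases before the outer start and 37 bases into the transcript at the inner one, and in those of Trpm2 and Trpm6, against 14.2% of all windows. A match is a string of letters and not a bound site. In 6 of the 9 windows the first 30 transcribed bases lay in a GENCODE vM21 coding transcript of that gene. The starts of the other windows had no such match.

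The islet libraries held between 230833584 and 530296257 assigned reads. Markers of beta cells summed to 116856 to 122288 CPM in prolactin and 114627 to 141165 CPM in control libraries, and all 8 were detected. Prolactin replicates 2 and 3 were far more alike than other replicates, with a chi-square of 6.61 per degree of freedom against 77.5 to 205.8 for the 5 other pairs within a condition, which is still above counting noise. Fibroblast and stellate markers summed to 677.9 to 843.7 CPM in prolactin and 334.4 to 493.6 CPM in control libraries. Acinar markers ranged from 717.2 to 1647 CPM in prolactin and from 438.6 to 2459 CPM in control libraries, highest in control replicate 3. Endothelial markers summed to 257.8 to 266.7 CPM in prolactin and 219.5 to 254.5 CPM in control libraries, and delta-cell and PP-cell markers to 5654 to 7016 CPM in prolactin and 8015 to 8479 CPM in control libraries, in both cases without overlap. By gene, Sst (called) and Ppy were lower in prolactin without overlap, while Pyy, Hhex and Rbp4 overlapped. Of the endothelial markers, Vwf (called), Plvap and Esam were higher without overlap, while Pecam1, Kdr and Cdh5 overlapped. Sums of alpha-cell and of Schwann-cell and neuron markers overlapped between the conditions. In the edgeR quasi-likelihood fit over 23924 genes, 0.757% were called at an adjusted p under 0.05, 0.652% as higher and 0.104% as lower in prolactin.

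Compared per length, as CPM per kb of exon, the family was dominated by Trpm7, the ubiquitous channel-kinase. Trpm7 stood at 7.002 ± 0.084 CPM per kb in prolactin and 7.20 ± 0.16 CPM per kb in control libraries (SD, n = 3 each), which was 52.1% and 54.6% of the family's summed level. Next came the sodium-passing channel Trpm4 at 1.83 ± 0.02 in prolactin and 1.97 ± 0.00494 CPM per kb in control, and the steroid-gated Trpm3 at 1.65 ± 0.04 and 1.90 ± 0.26 CPM per kb. Trpm5 followed at 1.54 ± 0.28 in prolactin and 0.948 ± 0.152 CPM per kb in control, then the ADP-ribose-gated Trpm2 at 0.774 ± 0.1804 and 0.836 ± 0.163 CPM per kb, and then Trpm1 at 0.585 ± 0.021 and 0.271 ± 0.010 CPM per kb. The magnesium channel-kinase Trpm6 and the cold and menthol receptor Trpm8 were at the bottom, near 0.035 CPM per kb in both conditions.

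The order of levels had steps that the libraries did not resolve. In prolactin libraries Trpm3 overlapped Trpm5, Trpm2 overlapped Trpm1, and Trpm8 overlapped Trpm6. In control libraries Trpm4 overlapped Trpm3, Trpm5 overlapped Trpm2, and Trpm6 overlapped Trpm8. The other neighbours in the order did not overlap in the 3 libraries of a condition. In controls Trpm7 lay above 72.7% of the tested genes by this level, Trpm4 above 53.1%, Trpm1 above 29.5% and Trpm8 above 6.94%. The merged exon length covers every annotated isoform and understates the level of a gene whose main transcript is short. With the length of the longest coding transcript 27 of the 28 pairs kept their order in each condition.

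**Figure D2:**
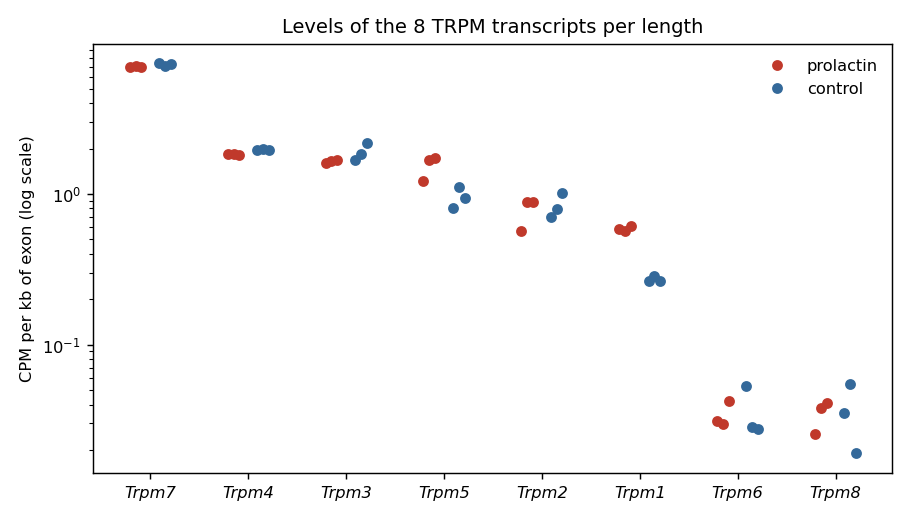
Level of each TRPM transcript in CPM per kb of merged exon (log scale) for the 3 prolactin libraries (red, left) and the 3 control libraries (blue, right), with genes ordered by their control mean. Trpm7 is highest, at 7.002 in prolactin and 7.20 in control, Trpm6 and Trpm8 are near 0.035, and Trpm1 and Trpm5 have prolactin points above their control points.

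The summed level of the family was nearly level between conditions. It was 12.8, 13.8 and 13.7 CPM per kb in the prolactin libraries, against 12.8, 13.1 and 13.7 CPM per kb in the control libraries, so the groups overlapped. Within that sum Trpm1 took 4.35 ± 0.21% in prolactin and 2.06 ± 0.11% in control libraries, and Trpm5 took 11.4 ± 1.7% in prolactin and 7.18 ± 1.13% in control (SD, n = 3 each). By the length of the longest coding transcript the share of Trpm1 was 7.14 ± 0.33% in prolactin and 3.41 ± 0.17% in control libraries.

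Of the 8 members, all passed the filter on low counts, and 1 (Trpm1) was called in the comparison of prolactin with control, where 0.757% of all tested genes were called; as the choice of the family rests on this very comparison, that count is a description. DESeq2 called 5.71% of the 18913 genes it gave an adjusted p, with Trpm1 and Trpm5 among them. The median log2 change over the members was -0.08, against 0.0004 over all tested genes, and 2 changes were positive and 6 negative. The 3 prolactin libraries lay above all 3 controls in 2 members, Trpm1 and Trpm5 (11.3% of tested genes), and below them in 1, Trpm4 (10.4%).

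Trpm1 rose in prolactin-treated islets. It had 8.56, 8.35 and 8.96 CPM in prolactin replicates 1, 2 and 3, against 3.90, 4.18 and 3.92 CPM in control replicates 1, 2 and 3. The libraries of a condition were close together and the groups did not overlap. The log2 ratio was 1.11 (SE 0.077), 2.16-fold, and between 1.08 and 1.14 in the 6 fits that left out 1 library each, in all of which the gene was called. In the authors' deposited table the log2 fold change of Trpm1 is 1.11 (SE 0.087). In bulk islets a change in RNA per cell and a change in the number of cells of a type cannot be told apart. Of the 7 fibroblast and stellate markers, all had positive log2 changes and 2 (Col1a1 and Col1a2) were called, whereas Pdgfrb, Dcn and Lum overlapped between the conditions. Col1a1 alone averaged 338.6 CPM in prolactin and 186.5 CPM in control libraries. The sum of the fibroblast markers was also higher in the prolactin libraries, as given above, and their part in the result was not tested. By library their sum was 843.7, 677.9 and 682.9 CPM in prolactin replicates 1, 2 and 3, against 493.6, 482.2 and 334.4 CPM in control replicates 1, 2 and 3, without overlap. Melanocyte markers, whose cells are known for this gene, summed to 9.05 to 10.4 CPM in prolactin and 8.83 to 10.8 CPM in control libraries. Of these, the pigment enzymes Tyr and Tyrp1 and the marker Mlana were under 0.1 CPM in every library. In prolactin and control libraries Mitf averaged 6.13 and 6.05 CPM, Dct 2.99 and 2.97 CPM, and Pmel 0.585 and 0.598 CPM. The gene has an outer and an inner start with exons that the counts merge, so the reads do not say which transcript rose. Overlapping loci at Trpm1 share at most 12 exonic bases with it and held under 0.04 CPM.

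Trpm5, which depolarises taste cells and beta cells once calcium has risen, was the other member with a positive log2 change. It had 7.79, 10.7 and 11.1 CPM in prolactin replicates 1, 2 and 3, against 5.12, 7.07 and 6.01 CPM in control replicates 1, 2 and 3. Every prolactin library was above every control library, but prolactin replicate 1 was nearer to the controls than to the other prolactin libraries. The log2 ratio was 0.70 (SE 0.15, edgeR adjusted p = 0.0826), which did not pass. It ranged from 0.59 to 0.84 over the fits without 1 library. Without prolactin replicate 1 it passed, but that fit keeps only prolactin replicates 2 and 3, which were far more alike than other replicates. With replicates 2 and 3 of prolactin summed into 1 library the log2 ratio was 0.63 and the edgeR adjusted p 0.333. The authors' deposited table gives Trpm5 a log2 fold change of 0.70 (SE 0.140) and an adjusted p of 5.04e-05, which is past 0.05. Prolactin replicate 1 had its condition's highest delta and PP cell marker sum (7016 CPM, against 5717 and 5654 CPM in replicates 2 and 3). Its acinar sum was likewise the highest (1647 CPM, against 717.2 and 741.0 CPM), as were its alpha-cell, duct and fibroblast sums. Beta-cell markers summed to 116856, 119201 and 122288 CPM in prolactin replicates 1, 2 and 3. In control replicates 1, 2 and 3 their sum was 114627, 141165 and 126585 CPM. Within each condition this sum ranked the libraries as Trpm5 did, while the conditions overlapped. Ins2, Mafa, Nkx6-1, Pdx1 and Ucn3 ranked them so too, but Ins1, Iapp and Slc2a2 did not. The part of all these cells was not tested. Trpm5 is also a marker of tuft cells, chemosensory epithelial cells; their defining genes Pou2f3 and Il25 were under 0.1 CPM in all 6 libraries. The 6 tuft-cell markers summed to 40.5 to 43.8 CPM in prolactin and 31.4 to 40.1 CPM in control libraries, a sum that includes Trpm5 itself. Its other tested members, Dclk1, Avil and Gnat3, each overlapped between the conditions. The part of these cells was not tested. The gene shares 220 exonic bases with Tssc4 on the opposite strand, and reads there cannot be assigned without strand. Tssc4 itself stood at 84.2 to 99.6 CPM over all libraries, with a log2 ratio of 0.13 (SE 0.055).

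Trpm4, the close relative of Trpm5 with the same ion selectivity, was slightly lower. It had 19.98, 19.9 and 19.5 CPM in prolactin libraries, against 21.2, 21.3 and 21.3 CPM in control libraries. The groups did not overlap, although the log2 ratio of -0.11 (SE 0.050) did not pass. The level of Trpm5 relative to Trpm4, per kb, was 0.659, 0.909 and 0.963 in prolactin libraries, against 0.408, 0.560 and 0.477 in control libraries. With the length of the longest coding transcript it averaged 0.512 ± 0.098 in prolactin and 0.292 ± 0.046 in control libraries (SD, n = 3 each). Trpm3 likewise had a negative log2 ratio beside its relative Trpm1. It had 13.0, 13.2 and 13.6 CPM in prolactin libraries, against 13.5, 14.8 and 17.5 CPM in control libraries, with overlap between the lowest control and the highest prolactin value. Its log2 ratio of -0.20 (SE 0.093) did not pass and was -0.09 without control replicate 3, the library that was highest. The level of Trpm1 relative to Trpm3, per kb, averaged 0.355 ± 0.009 in prolactin and 0.145 ± 0.020 in control libraries (SD, n = 3 each). With the length of the longest coding transcript it averaged 0.681 ± 0.018 in prolactin and 0.278 ± 0.038 in control libraries, so its size depends on the length used.

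**Figure D3:**
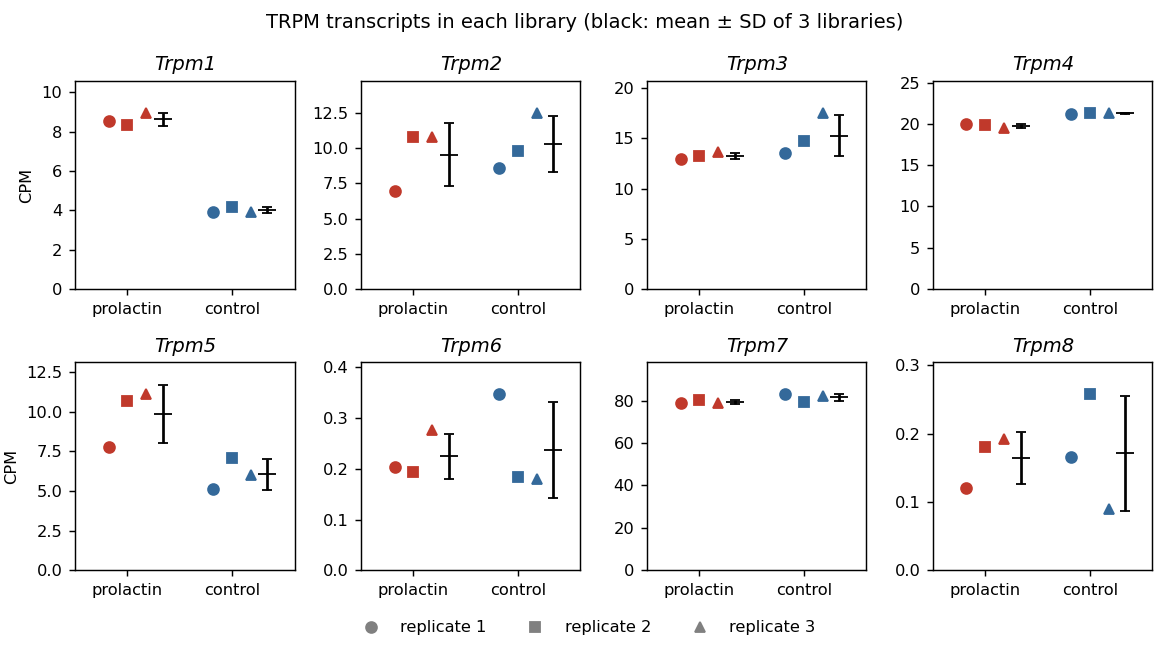
CPM of each TRPM transcript in the 3 prolactin libraries (red, left) and the 3 control libraries (blue, right), with 1 symbol per replicate number, black bars for the mean ± SD and a separate vertical axis from 0 for each gene. Trpm1 and Trpm5 show no overlap between conditions with prolactin above, Trpm4 shows a small gap with prolactin below, and the other genes overlap.

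Trpm2, a calcium-permeable channel opened by ADP-ribose and oxidative stress, varied more within a condition than between conditions. It had 6.97, 10.8 and 10.8 CPM in prolactin libraries, against 8.59, 9.79 and 12.5 CPM in control libraries. The groups overlapped and the log2 ratio was -0.11 (SE 0.184), turning to 0.07 without prolactin replicate 1 and to 0.05 without control replicate 3. The 7 macrophage and leukocyte markers, from cells that also use TRPM2, summed to 97.2, 104.9 and 108.9 CPM in prolactin libraries and 97.8, 101.8 and 112.3 CPM in control libraries. This sum was lowest and highest in the same libraries as Trpm2. By gene, Csf1r and Itgam had both extremes in those libraries, Cd68 and Lyz2 only the highest, and Cd74, Ptprc and Adgre1 neither. Cd74 alone averaged 56.6 CPM in prolactin and 55.7 CPM in control libraries. The part of these cells was not tested. None of the 7 was called.

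Trpm7 had the log2 ratio nearest to 0 of the 8 genes. It had 78.6, 80.3 and 78.7 CPM in prolactin libraries, against 83.0, 79.5 and 81.9 CPM in control libraries, with overlap and a log2 ratio of -0.04 (SE 0.047). Its relative Trpm6, known for magnesium uptake in kidney and gut, had 0.203, 0.193 and 0.276 CPM in prolactin libraries, against 0.346, 0.184 and 0.179 CPM in control libraries. That rests on 45 to 186 reads per library, and the log2 ratio of -0.10 (SE 0.306) became 0.31 without control replicate 1. Trpm8 had 0.121, 0.181 and 0.193 CPM in prolactin libraries and 0.166, 0.258 and 0.0897 CPM in control libraries, from 24 to 89 reads. Its log2 ratio was -0.05 (SE 0.375).

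**Figure D4:**
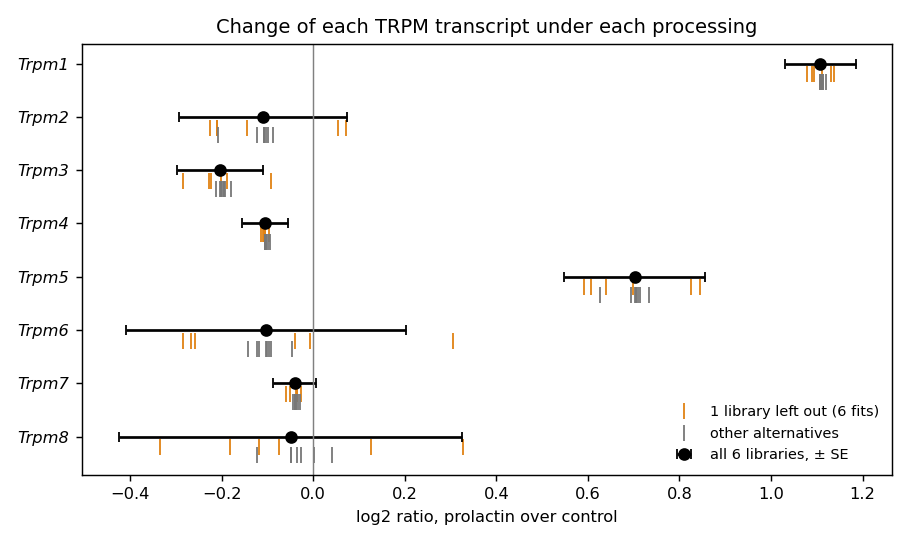
Log2 ratio of prolactin over control for each TRPM gene with all 6 libraries (black points ± SE), in the 6 fits that left out 1 library (orange ticks) and under the other alternatives (grey ticks). Trpm1 stays between 1.08 and 1.14 and Trpm5 between 0.59 and 0.84, while the ticks of Trpm2, Trpm6 and Trpm8 fall on both sides of 0.

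Genes that work beside TRPM channels were read from 8 lists chosen by their known roles. As the lists were made with earlier results of these data known, the counts below are descriptions. Of 95 such genes tested, 0 were called by edgeR's quasi-likelihood test, where 0.757% of all genes were; at an unadjusted p below 0.05 there were 11 higher and 9 lower, where 14.5% of all tested genes lay below it. DESeq2 called 13 of the 82 listed genes with an adjusted p (15.9%), against 5.71% of all genes, and limma-voom called 0. Their median log2 change was -0.006, and in 28 of the 95 the groups did not overlap, against 21.6% of all tested genes.

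Among 18 tested channels of the other TRP subfamilies, 0 were called by edgeR. At its unadjusted p below 0.05, 5 were higher and 3 lower, where 14.5% of all tested genes lay below it. Positive log2 changes were seen in 9, and the median was 0.02. Trpc7, a diacylglycerol-gated calcium channel, had the smallest p, with 2.05, 1.63 and 1.66 CPM in prolactin libraries, against 1.17, 0.924 and 0.915 CPM in control libraries (log2 ratio 0.82, SE 0.156, edgeR adjusted p = 0.0564). The osmosensitive channel Trpv4 averaged 2.80 ± 0.19 CPM in prolactin and 1.87 ± 0.20 CPM in control libraries (SD, n = 3 each; edgeR adjusted p = 0.0712). Mcoln3, an endolysosomal channel, averaged 6.54 ± 0.63 CPM in prolactin and 9.86 ± 1.52 CPM in control libraries (edgeR adjusted p = 0.0744). In these 3 genes the groups did not overlap. Trpc2 held 0 reads, and Trpv5 and Pkd2l1 were under 0.1 CPM in every library.

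In the retinal cascade that gates TRPM1, 0 of 11 tested genes were called by edgeR, where 0.757% of all tested genes were. At its unadjusted p below 0.05, 1 was higher and 1 lower, where 14.5% of all tested genes lay below it. Gpr179, the orphan receptor that holds the cascade's RGS proteins at the dendrite, had 4.36, 4.63 and 4.33 CPM in prolactin libraries, against 3.40, 3.31 and 2.86 CPM in control libraries (log2 ratio 0.48, SE 0.0998, edgeR adjusted p = 0.0763). The RGS anchor Rgs9bp averaged 0.552 ± 0.021 CPM in prolactin and 0.833 ± 0.080 CPM in control libraries (edgeR adjusted p = 0.124). The gamma subunit Gng13 was near 0.1 CPM, with 0.0817 CPM in prolactin and 0.121 CPM in control libraries on average. Grm6, the glutamate receptor that starts the cascade, and Lrit1, Lrit3 and Cabp5 were under 0.1 CPM in every library, and Gnao1, the G protein alpha subunit below it, averaged 314.3 ± 18.3 CPM in prolactin and 301.0 ± 28.1 CPM in control libraries. In the list of MITF and pigment genes, 0 of 8 tested were called (0 at an unadjusted p under 0.05). Mitf itself, which drives Trpm1 in melanocytes, had 6.13 ± 0.15 CPM in prolactin and 6.05 ± 0.29 CPM in control libraries (SD, n = 3 each). Log2 ratios were 0.51 for the melanocortin receptor Mc1r (near 0.1 CPM), 0.11 for Kit and 0.10 for Sox10. The pigment enzymes Tyr and Tyrp1 were under 0.1 CPM in every library. Dct, of the same list, averaged 2.99 CPM in prolactin and 2.97 CPM in control libraries.

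Around TRPM5, 0 of 11 tested genes of the taste and tuft cascade were called by edgeR, and 0 had an unadjusted p under 0.05. Over all tested genes the shares were 0.757% and 14.5%. The taste G protein Gnat3 averaged 0.125 ± 0.049 CPM in prolactin and 0.0657 ± 0.0323 CPM in control libraries. Avil, a tuft-cell actin-binding protein, had a log2 ratio of 0.50 (SE 0.296), the umami receptor subunit Tas1r1 one of 0.12, and Itpr3, the IP3 receptor of taste cells, one of 0.06. Among 11 genes of ADP-ribose and NAD turnover, which set the ligand of TRPM2, 2 had positive log2 changes. Cd38, an ectoenzyme that makes ADP-ribose, averaged 2.65 ± 0.29 CPM in prolactin and 1.87 ± 0.10 CPM in control libraries (edgeR adjusted p = 0.106), and Nampt, which recycles NAD, averaged 72.2 ± 0.84 CPM in prolactin and 82.4 ± 2.86 CPM in control libraries (edgeR adjusted p = 0.132). The ADP-ribose hydrolase Nudt9 had a log2 ratio of -0.11 and the ectoenzyme Bst1 one of 0.33 at under 0.2 CPM.

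For the channel-kinases, 0 of 18 tested genes of magnesium transport were called by edgeR, where 0.757% of all tested genes were. At its unadjusted p below 0.05, 2 were higher and 3 lower, where 14.5% of all tested genes lay below it. The phosphatase Ptp4a3 had a log2 ratio of 0.23 (edgeR adjusted p = 0.101) and the CNNM magnesium-transport gene Cnnm1 one of -0.51 (edgeR adjusted p = 0.142). Egf, the growth factor that raises TRPM6 activity in kidney, had a log2 ratio of -0.29 (edgeR adjusted p = 0.155), and the magnesium transporter Nipa1 one of -0.22 (edgeR adjusted p = 0.252). Among 10 KATP subunits and TRPM4 partners, the lipid kinase Pip5k1c had a log2 ratio of -0.30 (edgeR adjusted p = 0.157) and the potassium channel subunit Abcc8 one of -0.14. The related subunit Abcc9 had a log2 ratio of 0.35 (edgeR adjusted p = 0.205). Of 8 genes of store-operated calcium entry, the IP3 receptor Itpr1 had the smallest p, with 186.8 ± 10.0 CPM in prolactin and 156.8 ± 7.0 CPM in control libraries (SD, n = 3 each; edgeR adjusted p = 0.114). The channel genes Orai1 and Orai2 and the calcium sensor Stim1 had log2 ratios of -0.10, -0.07 and -0.11. The prolactin-response genes Cish, Socs2, Prlr, Tph1, Ovol2 and Bcl6 were listed because their changes in these libraries were already known, so that all 6 were called (5 higher and 1 lower) is a description and no independent check of the treatment.

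The nearest coding genes, 2 on each side of every TRPM gene, gave 31 tested neighbours. Of these, 1 rose and 0 fell in edgeR's test (8 had an unadjusted p under 0.05), where 0.757% of all tested genes were called and 14.5% had such a p. It was Mtmr10, a myotubularin-related gene whose start lies 17877 bases beyond the end of Trpm1 on the same strand. Mtmr10 had 53.7, 53.8 and 53.7 CPM in prolactin libraries, against 40.6, 45.02 and 40.0 CPM in control libraries. The groups did not overlap, and the log2 ratio was 0.36 (SE 0.058, edgeR adjusted p = 0.0319). It passed in 2 of the 6 fits without 1 library, with log2 ratios from 0.33 to 0.41 and edgeR adjusted p from 0.0254 to 0.193. With prolactin replicates 2 and 3 summed into 1 library the log2 ratio was 0.36 and the edgeR adjusted p 0.197. On the other side of Trpm1, Klf13 and Otud7a had log2 ratios of 0.07 and -0.02, and Fan1, beyond Mtmr10, one of 0.01. Next to Trpm5 the log2 ratio was 0.05 for Cd81 and 0.26 for the potassium channel gene Kcnq1 (edgeR adjusted p = 0.816 and 0.488).

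Over the 6 libraries, among genes averaging 5 CPM or more, those whose log2 CPM ran closest to Trpm1 were Cited2 (Pearson r = 0.999), Col15a1 (0.998), Sema5a (0.995), Amigo2 (0.995) and Prlr (0.994). All 5 were called higher in prolactin, where 0.652% of all tested genes were. That follows largely from how they were picked, because Trpm1 itself separates the conditions. As the 6 points fall into 2 conditions, 370 of the 10633 genes searched had an r over 0.9 with Trpm1. Prlr, the prolactin receptor gene, had 441.2, 479.2 and 497.1 CPM in prolactin libraries, against 212.4, 232.6 and 233.0 CPM in control libraries. For Trpm5 the closest were Sh3gl2, Wnt4, Robo2, Deptor and Zbtb7c, with r between 0.993 and 0.997 and none of them called, where 306 of the 10633 genes had an r over 0.9. Wnt4, a secreted signalling protein of islet cells, had 162.9, 225.8 and 220.6 CPM in prolactin libraries, against 105.1, 139.4 and 125.8 CPM in control libraries, and so shared with Trpm5 the low value in replicate 1 of each condition.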

How the data were processed

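The authors deposited whole-number read counts per gene name, made with featureCounts 2.0.3 on GENCODE vM10, per the file headers, for mm10, per the submitters' processing notes. The recorded command has no strand option and no pair counting, and even counts were in surplus (53.9% to 56.3% of counts from 1 to 20), so mates may be counted separately. No aligner is named there. A further table by the authors gives each gene a log2 fold change, its standard error, a p-value, an adjusted p-value, a score (the test statistic) and a signal (the mean of scaled counts), all as deposited.

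Counts were fitted with edgeR 4.0.16 (TMM, minimum count 10, minimum total 15, 23924 of 48397 genes kept), with a two-sided quasi-likelihood test of condition and Benjamini-Hochberg adjustment over all tested genes. The SE was taken from the test statistic, and CPM use TMM-scaled totals. Alternatives were other scalings and filters, DESeq2 1.42.0, limma-voom (limma 3.58.1), a replicate block, halved counts, prolactin replicates 2 and 3 summed, and leaving out each library. The procedure was also run on simulated data whose libraries were drawn independently of each other. The likeness of prolactin replicates 2 and 3 and any separate counting of mates were not simulated. Coding sequences came from GENCODE vM21, aligned with Biopython 1.88, and promoters and microRNAs from RefSeq (GRCm38.p6). Members, lists and the rule for naming genes were chosen with earlier results of these data known: all TRPM genes, up to 4 genes per list with the smallest p, and the 5 genes most like Trpm1 and Trpm5; neighbours (by position) and the ratios and shares by transcript length were added after the data were seen. Some genes that the rule selects are not reported here.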

Additional observations from a re-analysis of the deposited data

How the results depend on the processing

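Trpm1 was called under all 15 alternatives, with log2 ratios from 1.08 to 1.14. The count of TRPM genes called was 1, and 2 (with Trpm5) with no filter on low counts, with the replicate number as a block and by DESeq2; leaving out 1 library gave 1 to 2. The count of related genes called was 0, and became 7 with no filter, 7 with the replicate block and 13 by DESeq2; leaving out 1 library gave 0 to 3, with 3 without control replicate 1 and 1 without control replicate 3. The cause of these differences was not tested. The labels do not say that the replicate numbers pair the samples. Same-numbered libraries deviated together in replicates 1 and 2 (r = 0.394 and 0.243) but not in replicate 3 (r = -0.036). Prolactin replicates 2 and 3 were much alike, and prolactin replicate 3 deviated with control replicate 2 (r = 0.299). Whether the numbers pair the samples therefore cannot be told from these values.

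Signs turned for some genes whose log2 ratio was near 0 or whose libraries spread widely, none of them called. Without 1 library, log2 ratios ran from -0.2252 to 0.0711 for Trpm2, from -0.2836 to 0.3053 for Trpm6, from -0.3351 to 0.3267 for Trpm8, from -0.0104 to 0.1187 for Gnao1, from -0.0165 to 0.0503 for Mitf and from -0.0878 to 0.242 for Sox10. Trpm8 was at 0.001 with the replicate block and at 0.0405 by limma-voom. In the order of levels per kb, 27 of 28 pairs kept their order with the longest coding transcript as the length, and 26 to 28 without 1 library. Trpm6 and Trpm8 rest on 24 to 186 reads per library.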
